A study of Homo sapiens with 6 samples.

Results

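The genes described here are 41 genes of the NRF2 pathway, followed in A549 cells with and without knockdown of CBX8. They are the transcription factor NRF2 itself (gene NFE2L2), its inhibitor KEAP1 and 39 genes reported as NRF2 targets. The members were taken by symbol from a given list. The deposited table lists estimated counts per RefSeq transcript, and the transcripts of a gene were summed. Of the 41 symbols, 40 were matched to entries of the table, which held 28436 genes after summing. TRIM16L was matched to no entry and is not analysed here. All 40 passed the filter on low counts, which kept 17106 genes.

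A549 is an established human lung adenocarcinoma cell line that is known for an inactivating mutation of KEAP1. KEAP1 is the adaptor that presents NRF2 to a CUL3 ubiquitin ligase, so that NRF2 is degraded in unstressed cells. Where KEAP1 fails, NRF2 stays in the nucleus, pairs with small MAF proteins and binds antioxidant response elements near its target genes. The targets make glutathione and thioredoxin enzymes, supply NADPH, detoxify aldehydes and quinones, handle haem and iron, and export conjugates. The counts hold no sequence, so the KEAP1 mutation was not checked.

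RNA sequencing was run on 6 libraries of A549 cells grown in medium with 10% fetal bovine serum. All cells had been infected with a lentivirus and stably carried a hairpin. The sample titles give 3 groups of 2 libraries, namely control, shCBX8-1 and shCBX8-2, and the labels call the first group control and the others CBX8 knockdown. The control hairpin is not described, the titles do not say what the first number of shCBX8-1 and shCBX8-2 stands for, and whether a group is 1 clone or a pool is not given. Nothing says that replicates were separate cultures, so p-values measure the spread between these libraries, which may be technical. The question was which NRF2 pathway genes differed between control and knockdown cells, and between the knockdown groups.

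Antioxidant response elements share the core TGACNNNGC, and the sequence TGACTCA is the AP-1 core that it can overlap in TGACTCAGC. These were searched on both strands in the RefSeq promoter windows of GRCh38.p14, from 250 bases before to 50 bases after a gene's start. Of the 41 genes, 30 had an entry, with 39 windows in all. The core TGACNNNGC occurred in 12 of 39 windows, or 30.8%, from 11 genes, and in 13.3% of the 35116 windows of all genes. The longer TGACTCAGC was found in 2 of 39 windows, those of ME1 and PIR, and in 0.561% of all windows. TGACTCA was in 3 of 39 windows, those of ME1, OSGIN1 and PIR, and in 4.95% of all. A match is a description of the letters and not a binding site. The windows shown here belong to members that passed a test below and hold a match (ME1, OSGIN1, PIR, GPX2 and IDH1). NQO1, AKR1B1, AKR1C1, AKR1C2, AKR1C3, ALDH1A1, FTL, SRXN1 and NR0B1 also passed below, and were searched without a match. GCLM, KEAP1 and TXNRD1 were picked from those that hold one and passed none. PGD, CBR1, EPHX1 and CYP4F11 also hold one and passed none, and are not shown. HMOX1, ALDH3A1, FTH1, ABCC1 and ABCC3, which passed below, had no entry and were not searched. Each runs 5′ to 3′ along the gene's strand, and capitals mark the match, which reads as its reverse complement where it lies on the other strand.
ME1 (chr6:83431052-83431301, minus strand): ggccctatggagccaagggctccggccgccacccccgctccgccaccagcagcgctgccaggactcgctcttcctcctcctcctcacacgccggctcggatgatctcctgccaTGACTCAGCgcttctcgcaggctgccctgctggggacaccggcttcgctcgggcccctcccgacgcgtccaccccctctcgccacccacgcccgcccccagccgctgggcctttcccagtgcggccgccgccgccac
OSGIN1 (chr16:83952990-83953239, plus strand): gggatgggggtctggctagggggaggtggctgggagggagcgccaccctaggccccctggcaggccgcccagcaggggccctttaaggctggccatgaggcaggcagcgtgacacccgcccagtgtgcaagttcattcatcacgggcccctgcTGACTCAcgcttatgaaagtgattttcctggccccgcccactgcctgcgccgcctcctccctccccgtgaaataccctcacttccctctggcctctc
PIR (chrX:15493289-15493318, minus strand): ggccgcgaagcGCTGAGTCAcggtgaggct
GPX2 (chr14:64942834-64942893, minus strand): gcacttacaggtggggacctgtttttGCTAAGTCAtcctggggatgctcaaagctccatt
IDH1 (chr2:208255181-208255240, minus strand): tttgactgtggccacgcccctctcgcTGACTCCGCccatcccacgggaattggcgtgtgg
GCLM (chr1:93909431-93909490, minus strand): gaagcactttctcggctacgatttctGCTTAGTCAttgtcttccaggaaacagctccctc
KEAP1 (chr19:10502780-10502839, minus strand): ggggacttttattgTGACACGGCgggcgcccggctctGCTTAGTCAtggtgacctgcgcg
TXNRD1 (chr12:104215654-104215713, plus strand): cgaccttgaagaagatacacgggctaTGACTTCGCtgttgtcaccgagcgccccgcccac
The ME1 match TGACTCAGC lay 137 to 129 bases before the start, and the OSGIN1 match TGACTCA lay 97 to 91 bases before it. PIR carried its TGACTCAGC on the other strand, 27 to 35 bases into the transcript. In the KEAP1 window both strands held a match. The window shown for TXNRD1 belongs to 1 of its start sites, and a window at another start site held a match as well.

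Total estimated counts were 64197784 to 67169537 per library, and 17978 to 18781 genes had a count. CBX8, a Polycomb protein that reads methylated histone H3, checked the labels. It stood at 24.6 and 26.3 CPM (counts relative to library totals after TMM scaling) in control, 7.79 and 7.70 CPM in shCBX8-1 and 17.7 and 13.8 CPM in shCBX8-2. All 4 knockdown libraries lay below both controls, with 30.4% and 61.9% of the control mean left in shCBX8-1 and shCBX8-2. The log2 fold change was -1.72 ± 0.16 (SE, adjusted p = 0.00704) and -0.69 ± 0.15 (adjusted p = 0.0297). Here and below, adjusted p is that of edgeR's quasi-likelihood test, adjusted over all 17106 genes by Benjamini and Hochberg, with 0.05 as the threshold. These calls ended without either control or either shCBX8-1 library (adjusted p up to 0.145 and 0.169), and that in shCBX8-2 also with only the 4 libraries compared (0.0679). Epithelial markers had counts for 5 of 5 genes. Summed, they ran from 24525 to 25403 CPM in control, 22033 to 22053 in shCBX8-1 and 27924 to 31539 in shCBX8-2. In shCBX8-2 the keratins KRT8 (0.24 ± 0.06, adjusted p = 0.0467) and KRT18 (0.28 ± 0.07, adjusted p = 0.037), which carry most of this sum, and EPCAM (1.17 ± 0.20, adjusted p = 0.013) rose, and in shCBX8-1 the cadherin CDH1 fell (-0.92 ± 0.13, adjusted p = 0.0241). CDKN2A, which is deleted in A549, had 0 counts in all 6 libraries, where a count of 0 allows up to 3. CORO1A and CD68, genes of leukocytes, were higher than in both controls in all 4 knockdown libraries, at 8.41 and 7.01, 19.6 and 19.9, and 15.7 and 14 CPM for CORO1A, and 80.4 and 85.2, 121 and 117, and 96.0 and 93.5 CPM for CD68. CORO1A rose in shCBX8-1 and shCBX8-2 (1.35 ± 0.14, adjusted p = 0.0109, and 0.94 ± 0.14, adjusted p = 0.00947), and CD68 in shCBX8-1 (0.53 ± 0.08, adjusted p = 0.0254). Fibroblast markers (6 of 7, DCN at 0) summed to 12.2 and 14.9, 8.94 and 9.64, and 6.19 and 5.61 CPM, and endothelial markers (4 of 5, KDR at 0) to 1.88 to 5.72 CPM over all libraries. Markers of HEK293-type packaging cells (6 of 6) summed to 124 and 122 CPM in control, 147 and 133 CPM in shCBX8-1 and 80.6 and 86.9 CPM in shCBX8-2. The part of any of these in the results below was not tested. In bulk samples such as these, fewer cells of a type and less RNA per cell cannot be told apart.

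Within a group, the 2 libraries differed by a median of 0.0618 log2 over the members for control, 0.0719 for shCBX8-1 and 0.159 for shCBX8-2, against 0.129, 0.128 and 0.240 over all genes. The shCBX8-2 libraries were therefore the least alike. GCLM showed it most plainly among the abundant members, at 98.1 and 167 CPM in shCBX8-2 and 148 to 171 CPM in the other 4 libraries. UGDH, which makes UDP-glucuronate, was similar, at 323 and 442 CPM in shCBX8-2, 424 and 437 CPM in control and 377 and 379 CPM in shCBX8-1.

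Together the members held 4.46 and 4.52% of the counts in the control libraries, 4.13 and 4.30% in shCBX8-1 and 3.96 and 3.81% in shCBX8-2. All 4 knockdown libraries lay below both controls in this share. The aldo-keto, aldehyde and carbonyl enzymes, the role with the largest share, held 1.90 and 1.93% of the control counts, with 1.54 and 1.60% in shCBX8-1 and 1.56 and 1.49% in shCBX8-2. The quinone, haem and iron genes went 1.26 and 1.28%, 1.33 and 1.40%, and 1.09 and 1.01%, higher than control in shCBX8-1 and lower in shCBX8-2. By contrast the 3 transporters rested at 0.111 and 0.122%, 0.109 and 0.110%, and 0.143 and 0.143%. The share of the transporters was thus above both controls in shCBX8-2 and below them in shCBX8-1. Shares are of counts without TMM scaling, and on the CPM scale ABCC2 and ABCC3 in shCBX8-1 overlapped the controls. These shares were not tested.

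Against control, 6 of 40 members passed in shCBX8-1 (15%), where 2.47% of all genes passed. NQO1 rose and AKR1C1, AKR1C2, ALDH3A1, HMOX1 and IDH1 fell, next to 1.34% of all genes that rose and 1.13% that fell. In shCBX8-2, 13 members passed (32.5%), against 12.7% of all genes. Of these ABCC1, ABCC3, NR0B1, OSGIN1 and SRXN1 rose, and AKR1B1, ALDH1A1, ALDH3A1, FTH1, GPX2, HMOX1, IDH1 and ME1 fell, next to 6.03% of all genes that rose and 6.66% that fell. The mean of both groups gave 7 members (17.5%), against 6.82% of all genes. OSGIN1 was higher and AKR1C1, ALDH1A1, ALDH3A1, HMOX1, IDH1 and ME1 were lower (all genes, 3.32% higher and 3.5% lower). Of these, AKR1C1 passed singly in shCBX8-1 alone, and ALDH1A1, ME1 and OSGIN1 in shCBX8-2 alone. ALDH1A1 stood at 0.21 in shCBX8-1 and -0.82 in shCBX8-2. Its mean call ended with DESeq2 size factors (adjusted p = 0.0506) and without the filter on low counts (0.0876). With the 4 knockdown libraries as 1 group, the IDH1 call alone held. Direct comparison of shCBX8-2 with shCBX8-1 gave 13 members (32.5%), against 9.84% of all genes, with 7 higher and 6 lower in shCBX8-2 (all genes, 4.05% higher and 5.79% lower). Only HMOX1, IDH1 and ALDH3A1 passed against control in both groups, and all 3 fell in both, while 3 further members passed against control for shCBX8-1 and another 10 for shCBX8-2. The share of all genes that passed in both groups was not computed, so this overlap has no background to be set against.

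The members are abundant, and abundant genes pass more often. Their median level was 419 CPM and 33 of them averaged 100 CPM or more. Among all 2173 genes at that level, 5.15% passed in shCBX8-1, 23% in shCBX8-2, 13.6% for the mean of both and 15.8% between the knockdown groups. For the 33 members the shares were 15.2%, 33.3%, 18.2% and 33.3%. The list was chosen with earlier results of these data known, so a larger share is not independent support. Over all 40 members tested, the median log2 fold change was -0.02 in shCBX8-1 and -0.02 in shCBX8-2, next to -0.01 and -0.04 over all genes. The median absolute log2 fold change of the 40 was 0.13 and 0.23, next to 0.20 and 0.28 over all genes.

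**Figure D1:**
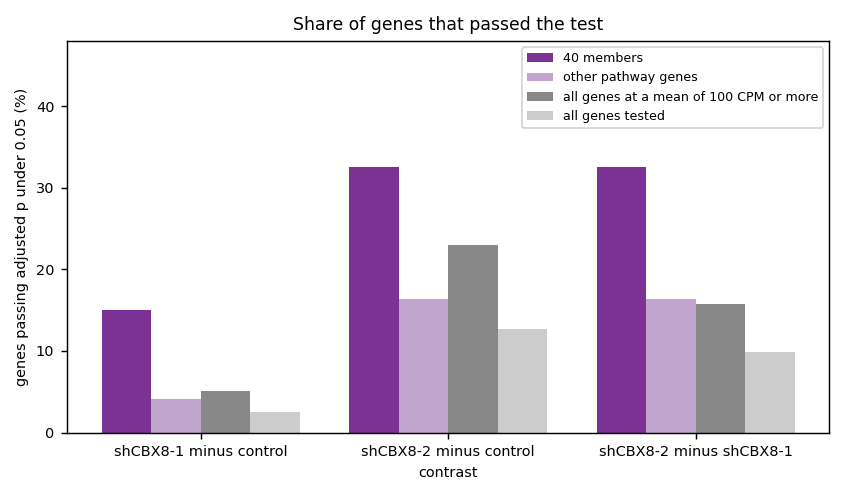
Bars give the percentage of genes that passed edgeR's test at an adjusted p under 0.05 in 3 contrasts, for the 40 members, the other genes of the pathway, all genes at a mean of 100 CPM or more, and all 17106 genes tested. The member bar is the tallest in each contrast, at 15%, 32.5% and 32.5%, and the bar of all genes is 2.47%, 12.7% and 9.84%. Between them, the bar of genes at 100 CPM or more is 5.15%, 23% and 15.8%.

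These counts rested on few libraries, and so did those over all genes. In shCBX8-1 against control, none of the member calls held with edgeR when control 1, control 2 or either shCBX8-1 library was left out. Of all genes at most 0.0394% passed there. Without either shCBX8-2 library 14 members passed, beside 13% of all genes. In shCBX8-2 against control, 2 members passed without control 1 (1.02% of all genes), 1 without control 2 (0.782%), 9 and 10 without shCBX8-1 replicate 1 and 2 (5.43% and 5.45%), and 19 and 24 without shCBX8-2 replicate 1 and 2 (19.6% and 31%). For the mean of both groups, none of the member calls held with edgeR without control 1 or control 2. For the same mean, 2 and 1 passed without shCBX8-1 replicate 1 and 2, and over these 4 settings at most 0.163% of all genes passed. Without shCBX8-2 replicate 1 and 2 the mean gave 19 and 25 members (18.2% and 25% of all genes). Between the knockdown groups 4 and 3 members passed without shCBX8-1 replicate 1 and 2 (0.708% and 0.807% of all genes), and 27 without shCBX8-2 replicate 2 (28.7%). DESeq2's Wald test on all libraries gave 8 members in shCBX8-1, 16 in shCBX8-2, 14 for their mean and 17 between them, beside 8.66%, 20.8%, 14.3% and 17.3% of all genes. With transcripts tested as deposited in place of summed genes, chosen after seeing the data, 0 members passed in each contrast with edgeR. Of all 40859 transcripts 0 passed against control and 0.00245% between the knockdown groups, while 10 to 24 members had a transcript at an unadjusted p under 0.05. No share of all transcripts was computed at that unadjusted p, and 26 members have more than 1 transcript entry.

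**Figure D2:**
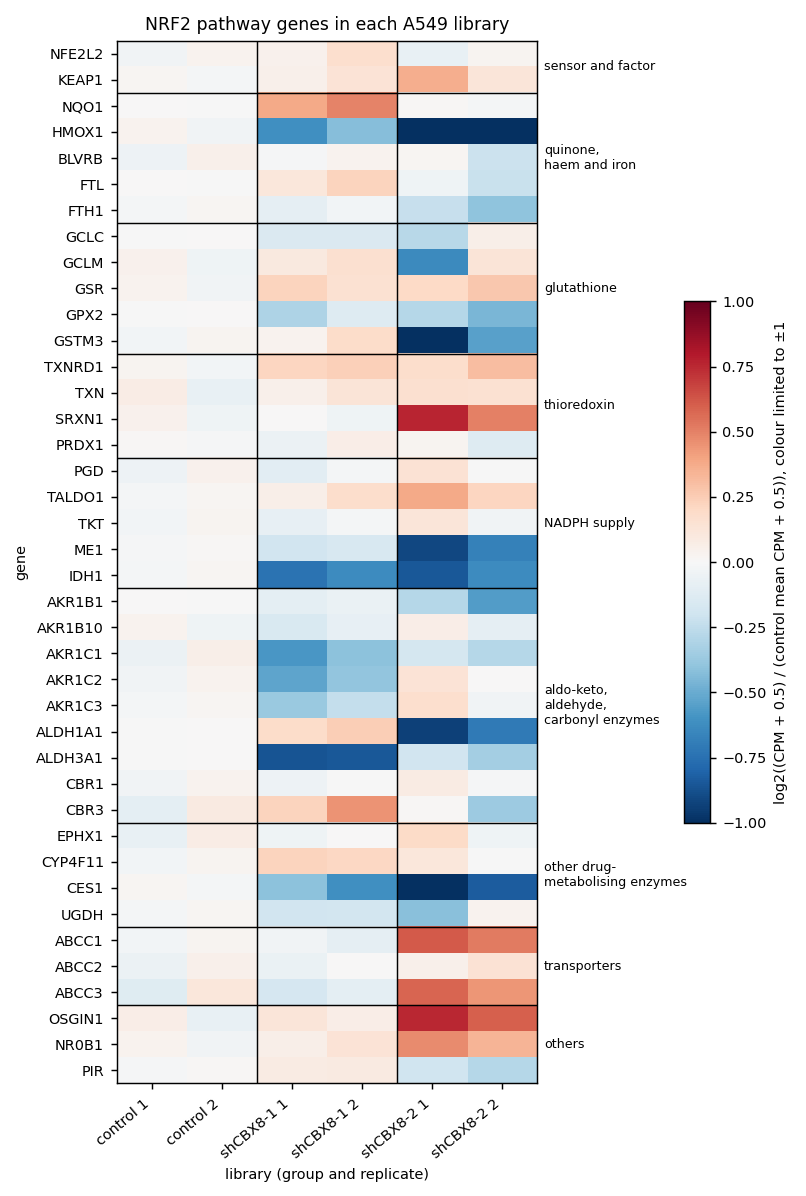
Rows are the 40 members, grouped by role, and columns the 6 libraries. Colour is log2 of the CPM plus 0.5 over the control mean plus 0.5, limited to ±1, with red above and blue below the control mean. HMOX1 is blue in all 4 knockdown libraries, ALDH1A1 is blue in the shCBX8-2 libraries alone, and CES1 and GSTM3, at under 3 CPM, vary most.

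The regulators themselves did not pass in any contrast. NFE2L2 stood at 88.1 and 92.2 CPM in control, 93.1 and 101 CPM in shCBX8-1 and 85.7 and 91.9 CPM in shCBX8-2. Both shCBX8-1 libraries lay above the other 4, while control and shCBX8-2 overlapped. Its log2 fold changes against control were 0.11 ± 0.08 (adjusted p = 0.592) and -0.02 ± 0.08 (adjusted p = 0.897). KEAP1 was at 113 and 111 CPM, 116 and 123 CPM, and 144 and 122 CPM. All 4 knockdown libraries had more KEAP1 RNA than both controls, but the log2 fold change of 0.25 ± 0.10 in shCBX8-2 did not pass (adjusted p = 0.148).

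HMOX1 fell furthest of the members that passed against control. It codes for haem oxygenase-1, which breaks haem down to biliverdin, iron and carbon monoxide, and lies on chromosome 22 (35381096 to 35394207). It stood at 148 and 141 CPM in control, 94.2 and 108 CPM in shCBX8-1 and 42.6 and 39.2 CPM in shCBX8-2. The 3 groups did not overlap, and shCBX8-2 kept 28.2% of the control mean while shCBX8-1 kept 69.8%. The log2 fold change was -0.52 ± 0.10 in shCBX8-1 (adjusted p = 0.046) and -1.82 ± 0.10 in shCBX8-2 (adjusted p = 0.000744). The 2 knockdown groups differed by -1.31 ± 0.10 (adjusted p = 0.0013). The fall in shCBX8-2 and the difference between knockdown groups passed without any 1 of the 6 libraries (adjusted p up to 0.0283 and 0.0326). The call in shCBX8-1 ended without either control or either shCBX8-1 library (adjusted p up to 0.303) and without the filter on low counts (adjusted p = 0.061).

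NQO1 went up in one knockdown group only. This quinone reductase, a widely used readout of NRF2 activity, lies on chromosome 16 (69709401 to 69726560). Control libraries had 1768 and 1751 CPM, shCBX8-1 had 2291 and 2484 CPM and shCBX8-2 had 1775 and 1737 CPM. Both shCBX8-1 libraries lay above the other 4, which overlapped one another. NQO1 rose by 0.44 ± 0.06 in shCBX8-1 (adjusted p = 0.0225), stood at -0.00 ± 0.06 in shCBX8-2 (adjusted p = 0.982), and differed between the knockdown groups by -0.44 ± 0.06 (adjusted p = 0.0079). The rise ended without either control or either shCBX8-1 library (adjusted p up to 0.213), and the difference between groups without shCBX8-1 replicate 2 (0.0606).

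The 2 ferritin chains, which store iron, moved less. FTH1, the heavy chain, was at 4017 and 4131 CPM in control, 3835 and 3988 CPM in shCBX8-1 and 3471 and 3090 CPM in shCBX8-2. Its shCBX8-2 libraries were the lowest, and it fell there by 0.31 ± 0.07 (adjusted p = 0.0276), a call that ended without control 1 or control 2 (up to 0.116). FTL, the light chain, was at 5964 and 5919, 6436 and 6919, and 5774 and 5102 CPM. It was highest in shCBX8-1 and lowest in shCBX8-2, and passed between these groups alone (-0.30 ± 0.07, adjusted p = 0.0459). That difference did not pass with DESeq2 size factors (adjusted p = 0.0517), with only the 4 libraries compared (0.0698), or without either control or either shCBX8-1 library (up to 0.148). BLVRB, a biliverdin and flavin reductase, ranged from 365 to 438 CPM with overlapping groups and did not pass.

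Of the 5 glutathione genes, 1 passed. GPX2, a selenium-dependent glutathione peroxidase of epithelia, was at 781 and 786 CPM in control, 633 and 715 CPM in shCBX8-1 and 643 and 570 CPM in shCBX8-2. All 4 knockdown libraries lay below the controls. It fell by 0.37 ± 0.09 in shCBX8-2 (adjusted p = 0.0378), without passing in shCBX8-1 (-0.22 ± 0.09, adjusted p = 0.267), and the knockdown groups overlapped. Its call ended without control 1 or control 2 (adjusted p up to 0.161). The catalytic subunit of glutamate-cysteine ligase, GCLC, was at 205 and 205, 186 and 186, and 169 and 213 CPM, and its modifier subunit GCLM was described above. GSR, the reductase that recycles glutathione, was at 397 and 379, 453 and 430, and 446 and 467 CPM. Its 4 knockdown values exceeded both controls, but it did not pass (0.19 ± 0.07 in shCBX8-1, adjusted p = 0.221, and 0.24 ± 0.07 in shCBX8-2, adjusted p = 0.0664). GSTM3, a glutathione transferase, averaged 2.15 ± 0.0713 CPM in control, 2.35 ± 0.207 in shCBX8-1 and 0.746 ± 0.810 in shCBX8-2 (SD, n = 2), where its libraries were at 0.173 and 1.32 CPM. It did not pass (-1.52 ± 0.74 in shCBX8-2, adjusted p = 0.228).

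In the thioredoxin group SRXN1 stood apart by knockdown group. It codes for sulfiredoxin, which reactivates over-oxidised peroxiredoxins, and lies on chromosome 20 (646615 to 653200). SRXN1 was at 458 and 430 CPM in control, 445 and 430 CPM in shCBX8-1 and 755 and 628 CPM in shCBX8-2. Both shCBX8-2 libraries lay above the other 4. It rose by 0.64 ± 0.10 in shCBX8-2 (adjusted p = 0.00928) and stood at -0.02 ± 0.10 in shCBX8-1 (adjusted p = 0.947), a difference of 0.66 ± 0.10 (adjusted p = 0.0102). The rise ended without control 1 or control 2 (adjusted p up to 0.0859) and the difference without either shCBX8-1 library (up to 0.0986). TXNRD1, thioredoxin reductase, was at 1640 and 1574, 1864 and 1897, and 1816 and 1994 CPM. Every knockdown library exceeded both controls, but the log2 fold changes did not pass in shCBX8-1 (0.23 ± 0.06, adjusted p = 0.133) or shCBX8-2 (0.25 ± 0.06, adjusted p = 0.0514). TXN and the peroxiredoxin gene PRDX1 ranged over 650 to 765 and 1176 to 1346 CPM and did not pass.

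Among the suppliers of NADPH, ME1 and IDH1 fell and 3 genes of the pentose phosphate pathway did not pass. ME1, cytosolic malic enzyme, lies on chromosome 6 (83210402 to 83431051) and carries the TGACTCAGC shown above. It was at 131 and 133 CPM in control, 115 and 118 CPM in shCBX8-1 and 70.0 and 82.6 CPM in shCBX8-2. The 3 groups did not overlap. It fell by 0.79 ± 0.09 in shCBX8-2 (adjusted p = 0.00489), where 57.8% of the control mean was left, and did not pass in shCBX8-1 (-0.18 ± 0.09, adjusted p = 0.4). The knockdown groups differed by -0.61 ± 0.09 (adjusted p = 0.0126). The shCBX8-2 call ended without control 1 or control 2 (up to 0.0753), and the difference without either control or either shCBX8-1 library (up to 0.13) or with only the 4 libraries compared (0.0564). PGD, TALDO1 and TKT ranged over 1483 to 1761, 321 to 424 and 2066 to 2376 CPM. TALDO1, transaldolase, was higher than control in all 4 knockdown libraries (0.30 ± 0.08 in shCBX8-2, adjusted p = 0.0582).

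IDH1 fell by nearly the same amount in both knockdown groups. The gene for the cytosolic NADP-dependent isocitrate dehydrogenase (chromosome 2, 208236227 to 208255071) was at 252 and 258 CPM in control, 153 and 165 CPM in shCBX8-1 and 142 and 165 CPM in shCBX8-2. All knockdown libraries lay below both controls, and the knockdown groups overlapped. The log2 fold change was -0.69 ± 0.09 in shCBX8-1 (adjusted p = 0.0227), -0.74 ± 0.09 in shCBX8-2 (adjusted p = 0.00568) and -0.05 ± 0.09 between them (adjusted p = 0.784). The level of 1 of its 3 transcript entries stood out. NM_001282387 went from 85.4 and 123 CPM in control to 25.1 and 14.9 CPM in shCBX8-1 and 33.5 and 7.71 CPM in shCBX8-2. The main entry, NM_005896, was at 153 and 129, 116 and 136, and 106 and 151 CPM, with overlapping groups. Without NM_001282387, a setting chosen after seeing the data, the log2 fold change was -0.13 in shCBX8-1 (adjusted p = 0.81) and -0.19 in shCBX8-2 (adjusted p = 0.55), so that neither call held. Reads shared between transcripts were divided by the authors' estimation, and whether this entry fell or its reads were assigned otherwise cannot be told apart. Both calls also ended without control 1 or control 2 (up to 0.265 and 0.0818), and that in shCBX8-1 without either shCBX8-1 library.

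**Figure D3:**
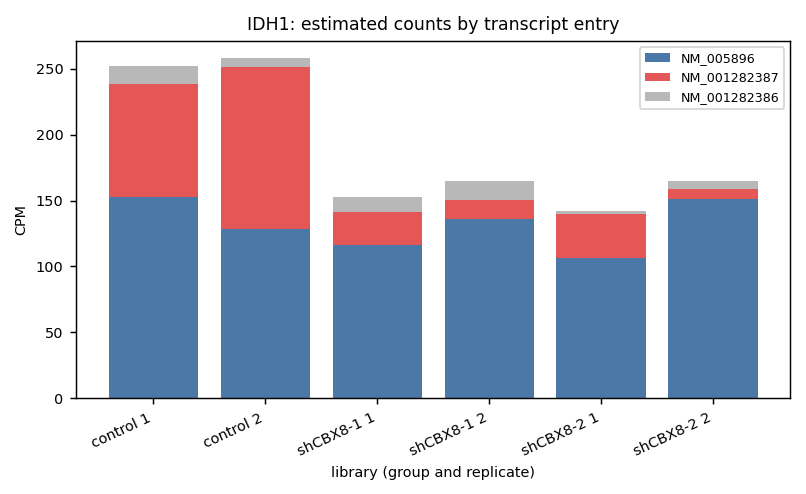
Stacked bars show the CPM of the 3 IDH1 transcript entries in each of the 6 libraries. The entry NM_001282387 shrinks from 85.4 and 123 CPM in the control libraries to between 7.71 and 33.5 CPM in the 4 knockdown libraries, while NM_005896 stays between 106 and 153 CPM.

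ALDH3A1 and ALDH1A1, aldehyde dehydrogenases that are both abundant in A549, fell most in different knockdown groups. ALDH3A1 (chromosome 17, 19737984 to 19748298) oxidises aromatic and medium-chain aldehydes. It was at 4793 and 4838 CPM in control, 2644 and 2671 CPM in shCBX8-1 and 4212 and 3802 CPM in shCBX8-2. The 3 groups did not overlap. It fell by 0.86 ± 0.06 in shCBX8-1 (adjusted p = 0.00338) and by 0.27 ± 0.06 in shCBX8-2 (adjusted p = 0.0338), and the groups differed by 0.59 ± 0.06 (adjusted p = 0.00349). ALDH1A1 (chromosome 9, 72900671 to 72953053) oxidises retinaldehyde. It was at 3522 and 3525 CPM in control, 3999 and 4174 CPM in shCBX8-1 and 1846 and 2156 CPM in shCBX8-2. These groups did not overlap either, and lay on opposite sides of control. ALDH1A1 fell by 0.82 ± 0.08 in shCBX8-2 (adjusted p = 0.00298), was not called in shCBX8-1 (0.21 ± 0.08, adjusted p = 0.226), and differed between the groups by -1.03 ± 0.08 (adjusted p = 0.0013).

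The differences of ALDH3A1 and ALDH1A1 between knockdown groups passed without any 1 library (adjusted p up to 0.0477 and 0.0451). Against control the ALDH3A1 call in shCBX8-1 ended without either control or either shCBX8-1 library (up to 0.103). The ALDH3A1 call in shCBX8-2 ended without either control or shCBX8-1 replicate 1 (up to 0.117) and with only the 4 libraries compared (0.055). For ALDH1A1 in shCBX8-2 the call ended without control 1 or control 2 (up to 0.0598).

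Of the 3 AKR1C members, aldo-keto reductases of steroids and lipid aldehydes that lie together on chromosome 10, AKR1C1 and AKR1C2 fell in shCBX8-1. AKR1C1 (4963415 to 4983283) was at 643 and 699 CPM in control, 447 and 504 CPM in shCBX8-1 and 593 and 551 CPM in shCBX8-2. AKR1C2 (4987775 to 5018000) was at 2168 and 2277, 1543 and 1687, and 2447 and 2225 CPM. AKR1C3 (5048781 to 5107686) was at 1478 and 1522, 1159 and 1271, and 1683 and 1463 CPM. In each the shCBX8-1 libraries were the lowest, and for AKR1C2 and AKR1C3 the shCBX8-2 and control libraries overlapped. AKR1C1 fell by 0.50 ± 0.09 (adjusted p = 0.0397) and AKR1C2 by 0.46 ± 0.07 (adjusted p = 0.032) in shCBX8-1, while AKR1C3 stood at -0.30 ± 0.08 (adjusted p = 0.127). None passed in shCBX8-2, at -0.23, 0.07 and 0.07. Between the knockdown groups AKR1C2 differed by 0.53 ± 0.07 (adjusted p = 0.0085) and AKR1C3 by 0.37 ± 0.08 (adjusted p = 0.0396). AKR1C4, a gene of the same family outside the member list, was at 1.49 and 1.76, 1.99 and 1.82, and 1.81 and 1.80 CPM and did not pass. AKR1C1 and AKR1C2 are near-identical copies, so the value of each alone is uncertain. Summed, they had a mean of 2894 ± 116 CPM in the controls, against 2091 ± 142 in shCBX8-1 and 2908 ± 186 in shCBX8-2 (SD, n = 2). The AKR1C1 and AKR1C2 calls in shCBX8-1 ended without either control or either shCBX8-1 library (up to 0.299 and 0.248). The AKR1C2 and AKR1C3 differences ended without either shCBX8-1 library (up to 0.0824 and 0.215), and that of AKR1C3 also without either control or with only the 4 libraries compared (0.0874).

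The AKR1B genes of chromosome 7 followed another order. AKR1B1, aldose reductase, was at 1824 and 1824 CPM in control, 1704 and 1743 CPM in shCBX8-1 and 1499 and 1236 CPM in shCBX8-2. The 3 groups did not overlap, and AKR1B1 fell by 0.42 ± 0.09 in shCBX8-2 (adjusted p = 0.0298). That call ended without either control or either shCBX8-1 library (up to 0.129) and with only the 4 libraries compared (0.0586). AKR1B10, a retinal and aldehyde reductase, was at 3927 and 3720, 3447 and 3614, and 4007 and 3587 CPM. Its shCBX8-1 libraries lay below both controls, and it did not pass (-0.12 ± 0.07 in shCBX8-1, adjusted p = 0.461). The carbonyl reductases CBR1 and CBR3 ranged over 217 to 237 and 10.1 to 18.2 CPM and did not pass.

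None of the 4 other drug-metabolising enzymes passed. EPHX1, microsomal epoxide hydrolase, ranged from 383 to 463 CPM, and CYP4F11, a fatty acid hydroxylase, from 141 to 168 CPM. UGDH stood at 0.02 ± 0.14 between the knockdown groups, with its shCBX8-2 libraries on either side of both shCBX8-1 libraries. CES1, a carboxylesterase, was near the limit of detection at 0.633 and 0.598, 0.337 and 0.227, and 0 and 0.127 CPM, where the 0 allows up to 3 counts. It fell in no contrast at the threshold (adjusted p = 0.141 in shCBX8-2).

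Of the 3 multidrug resistance-associated transporters, which export glutathione and glucuronide conjugates, 2 rose in shCBX8-2. ABCC1 (chromosome 16, 15949143 to 16143053) was at 361 and 374 CPM in control, 360 and 345 CPM in shCBX8-1 and 562 and 527 CPM in shCBX8-2. ABCC3 (chromosome 17, 50634881 to 50692253) was at 307 and 362, 298 and 313, and 501 and 454 CPM. For both genes the shCBX8-2 libraries lay above the other 4, and control and shCBX8-1 libraries lay close together. ABCC1 rose by 0.57 ± 0.07 (adjusted p = 0.00486) and ABCC3 by 0.51 ± 0.10 (adjusted p = 0.0199) in shCBX8-2. In shCBX8-1 they stood at -0.06 ± 0.07 (adjusted p = 0.73) and -0.13 ± 0.10 (adjusted p = 0.572). The knockdown groups differed by 0.63 ± 0.07 (adjusted p = 0.00429) and 0.65 ± 0.10 (adjusted p = 0.0119). The ABCC1 accession is listed more than once, and its 2 entries moved alike, from 164 and 177 CPM to 268 and 250 CPM and from 197 and 197 CPM to 294 and 277 CPM in control and shCBX8-2. ABCC2 ranged from 411 to 477 CPM with no call. Both rises ended without control 1 or control 2 (up to 0.0583 and 0.103), and that of ABCC3 without either shCBX8-1 library or with only the 4 libraries compared (0.0568). Both differences ended without either shCBX8-1 library (up to 0.0606 and 0.129).

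The remaining 3 members that were measured also separated shCBX8-2. OSGIN1 (chromosome 16, 83953240 to 83966332), an oxidative stress-induced growth inhibitor, was at 205 and 186 CPM in control, 213 and 205 CPM in shCBX8-1 and 330 and 296 CPM in shCBX8-2. Its shCBX8-2 libraries were the highest, and it rose there by 0.68 ± 0.09 (adjusted p = 0.00593), against 0.09 ± 0.09 in shCBX8-1 (adjusted p = 0.656) and a difference of 0.58 ± 0.09 (adjusted p = 0.0109). NR0B1 (DAX1), an orphan nuclear receptor that represses other receptors, was at 66.8 and 63.4, 67.8 and 71.8, and 90.7 and 82.5 CPM. It rose by 0.41 ± 0.09 in shCBX8-2 (adjusted p = 0.0276). PIR, the iron-binding protein pirin, was at 68.7 and 69.7, 73.4 and 73.5, and 60.2 and 56.7 CPM. PIR passed between the knockdown groups alone (-0.33 ± 0.08, adjusted p = 0.0477), with its 3 groups apart. The OSGIN1 rise ended without control 2 (0.0634) and its difference without either shCBX8-1 library (up to 0.105). The NR0B1 call ended without either control or either shCBX8-1 library (up to 0.181) and with only the 4 libraries compared (0.0613). The PIR call ended in those settings (up to 0.189 and 0.0806) and with DESeq2 size factors (0.0524).

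**Figure D4:**
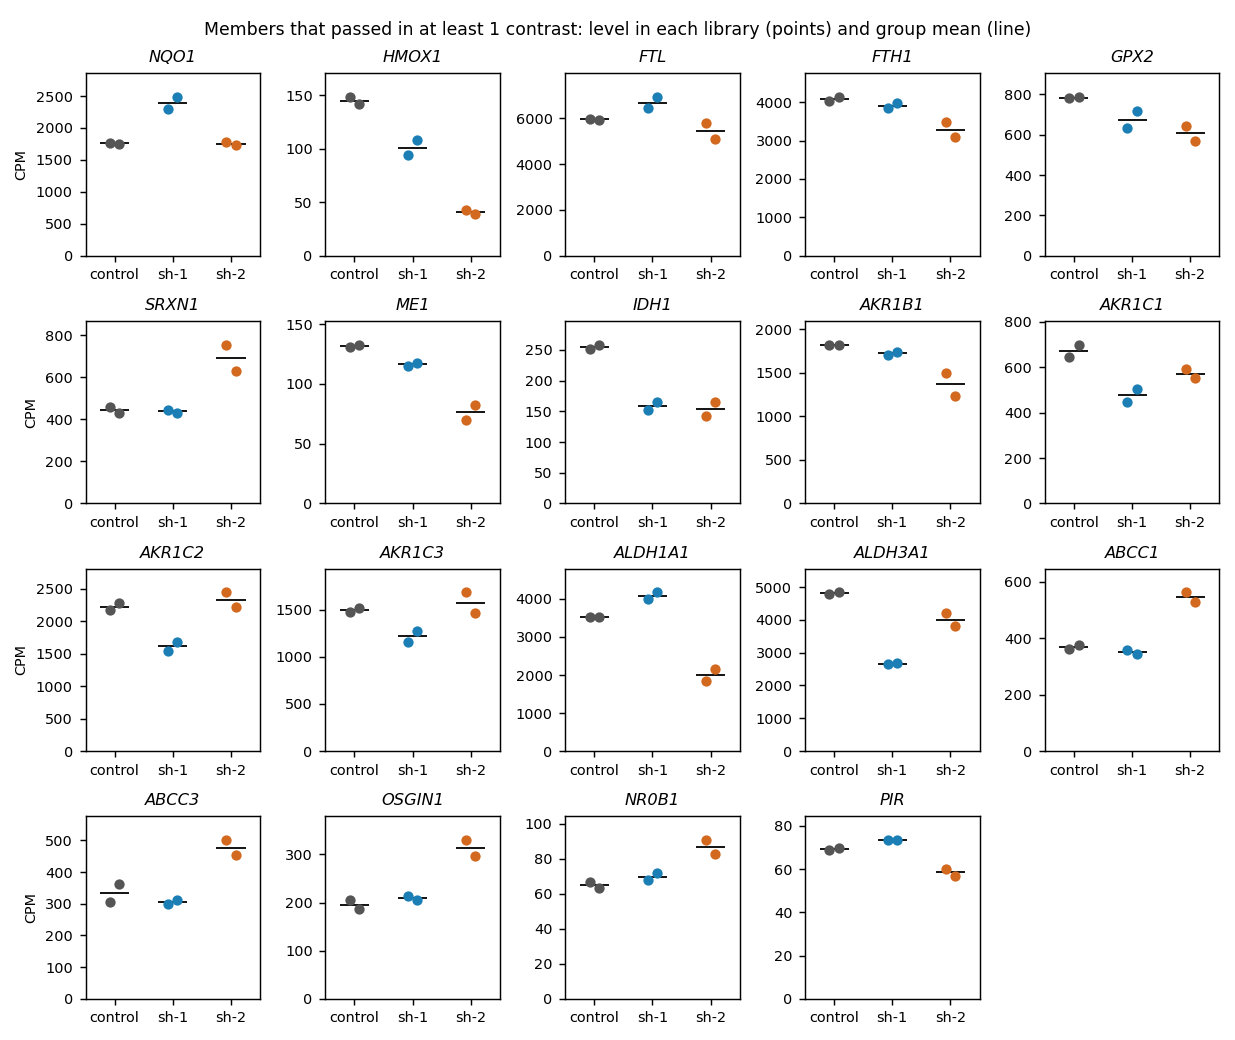
Each panel shows 1 of the 19 members that passed in at least 1 contrast, with the CPM of each library as a point, the group mean as a line and the axis from 0. HMOX1 steps down from control through shCBX8-1 to shCBX8-2, NQO1 is high in shCBX8-1 alone, and ABCC1, ABCC3, SRXN1 and OSGIN1 are high in shCBX8-2 alone.

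Placed side by side, the knockdown groups differed in 13 members. Higher in shCBX8-2 than in shCBX8-1 were the transporters ABCC1 and ABCC3, the enzymes AKR1C2, AKR1C3, ALDH3A1 and SRXN1, and OSGIN1. ALDH1A1, FTL, HMOX1, ME1, NQO1 and PIR were lower there. The CBX8 level itself differed by 1.02 ± 0.15 between these groups (adjusted p = 0.0114), with more CBX8 RNA left in shCBX8-2. Of the 13, HMOX1, ME1, ALDH1A1, ABCC1, ABCC3, SRXN1, OSGIN1 and PIR lay farther from control in the group with more CBX8 left. ALDH3A1, AKR1C2, AKR1C3, NQO1 and FTL lay farther from control in the group with less. These distances were not tested. FTL was at nearly the same distance in both groups, at 0.17 ± 0.07 in shCBX8-1 and -0.13 ± 0.07 in shCBX8-2. FTL, PIR and AKR1C3 passed against control in neither group. Both contrasts against control share the 2 control libraries, so a likeness between them is not independent.

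**Figure D5:**
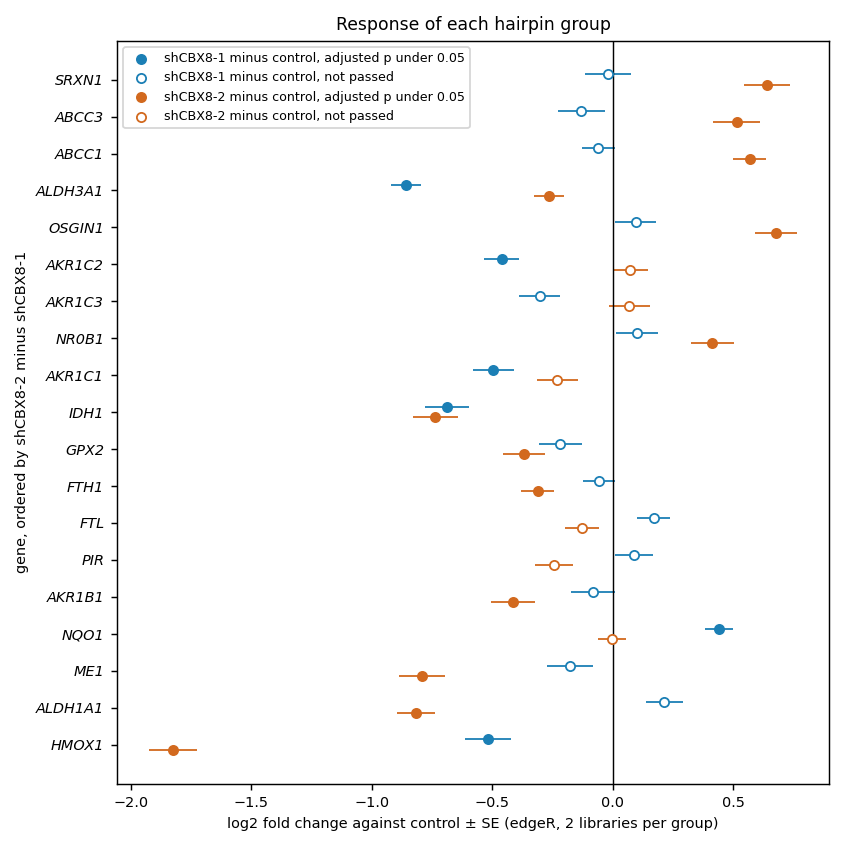
Points are log2 fold changes against control with SE bars for the 19 members that passed in at least 1 contrast, in shCBX8-1 and shCBX8-2, ordered by the difference between the groups. Filled points passed at an adjusted p under 0.05. HMOX1, at -0.52 and -1.82, and ALDH1A1, at 0.21 and -0.82, lie at one end and SRXN1, at -0.02 and 0.64, at the other.

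A second list held 51 other genes of the pathway, of which 49 were tested. GSTA1 and ADH7 did not pass the filter. In shCBX8-1, 2 fell and 0 rose (4.08%), in shCBX8-2, 7 fell and 1 rose (16.3%), and between the knockdown groups 6 were lower and 2 higher in shCBX8-2 (16.3%), next to 2.47%, 12.7% and 9.84% of all genes. For the mean of both groups ABCG2, GLRX, KLF9, MAFK and PTGR1 fell and 0 rose (10.2%), next to 6.82% of all genes. With the 4 knockdown libraries as 1 group these calls ended (adjusted p = 0.0989 to 0.573), where 0.158% of all genes passed. With edgeR, 10 of the 49 had an unadjusted p under 0.05 for the mean. The numbers were 15 in shCBX8-1, 17 in shCBX8-2 and 21 between the knockdown groups. Over all genes 23.7%, 17.3%, 29.3% and 26.4% did, a larger share for the mean and a smaller one otherwise. Of the 17 partners, competitors and turnover factors of NRF2, MAFK and KLF9 fell in shCBX8-2, FBXW11 fell and RXRA rose, and MAFK alone passed in shCBX8-1. KLF9, at 2.83 to 7.64 CPM, stood at -0.80 ± 0.21 in shCBX8-1 (adjusted p = 0.114) and -1.15 ± 0.21 in shCBX8-2 (adjusted p = 0.018). The small MAF protein MAFK, which pairs with NRF2 on DNA, was at 222 and 226 CPM in control, 144 and 130 CPM in shCBX8-1 and 165 and 155 CPM in shCBX8-2. All 4 knockdown libraries lay below both controls, and MAFK fell by 0.71 ± 0.08 (adjusted p = 0.0144) and 0.49 ± 0.08 (adjusted p = 0.0133). Both calls ended without control 1 or control 2 (up to 0.193 and 0.0991), and the first without either shCBX8-1 library. The KLF9 call in shCBX8-2 ended without control 1 or control 2. Those of FBXW11 and RXRA ended without either control or either shCBX8-1 library (up to 0.251 and 0.227) and with only the 4 libraries compared (0.105 and 0.0825), and that of FBXW11 also without the filter on low counts (0.0616).

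Of the 32 further targets tested, PTGR1 fell in both groups, ABCG2, FECH and GLRX in shCBX8-2, and MGST1, TXNIP, SLC48A1 and TRIM16 passed between the knockdown groups alone. ABCG2 was alike in both groups, at -0.39 ± 0.09 in shCBX8-1 (adjusted p = 0.0727) and -0.48 ± 0.09 in shCBX8-2 (adjusted p = 0.0169). The calls of ABCG2, FECH, MGST1, TXNIP, SLC48A1 and TRIM16 ended without either control or either shCBX8-1 library (adjusted p up to 0.146, 0.197, 0.282, 0.211, 0.178 and 0.183 in that order) and with only the 4 libraries compared (0.0565 to 0.119). That of MGST1 also ended without the filter on low counts (0.0731) and without repeated accessions (0.0565), and that of TRIM16 with DESeq2's size factors (0.0545). PTGR1, a reductase of prostaglandins and alkenals, was at 389 and 366 CPM in control, 265 and 274 CPM in shCBX8-1 and 233 and 222 CPM in shCBX8-2. The 3 groups did not overlap, and it fell by 0.49 ± 0.07 (adjusted p = 0.0254) and 0.73 ± 0.07 (adjusted p = 0.00298). The fall in shCBX8-2 passed without any 1 library (up to 0.044), and that in shCBX8-1 ended without either control or either shCBX8-1 library (up to 0.243). GLRX, glutaredoxin, was at 65.0 and 64.3, 59.9 and 64.4, and 38.2 and 39.3 CPM, low in shCBX8-2 alone, and fell there by 0.74 ± 0.08 (adjusted p = 0.00437, ending without control 1 or control 2, up to 0.0632). SQSTM1, the autophagy receptor p62 that binds KEAP1, was at 1606 and 1564, 2016 and 2041, and 1542 and 1367 CPM. It differed between the knockdown groups by -0.48 ± 0.07 (adjusted p = 0.0102, ending without either shCBX8-1 library, up to 0.0743).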

How the data were processed

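The labels give Trizol for RNA extraction and standard Illumina library protocols. The authors deposited expected counts: reads estimated for each RefSeq transcript, without any scaling. The submitters' processing notes name HISAT2 2.2.1, StringTie 2.2.1, DESeq2 1.34.0 and hg38, without roles. The strand setting and annotation version were not given in the sources used here. Of 84787 entries, 99.45% were matched to genes by RefSeq (GRCh38.p14) or GENCODE tables, and entries were summed per gene. All values were whole already.

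Tests used edgeR 4.0.16 under R 4.3.3 (filterByExpr with minimum count 10 and total 15, TMM scaling, quasi-likelihood fit of 3 groups over all 6 libraries, 3 residual degrees of freedom, common dispersion 0.0365). P-values were two-sided, adjusted over 17106 genes, with no minimum fold. Standard errors came from the F statistic. Replicates differed beyond sampling noise, and their precision is limited by 2 libraries per group. The script was tested on simulated data. The members, lists and tests were chosen with earlier results of these data known. Every member is accounted for, and members or other pathway genes that passed in any contrast are named. Alternatives were DESeq2 1.42.0 (test and size factors), no filter, each library left out, replicate block, no repeated accessions, fewer or merged groups and a 1.5-fold minimum. Added after seeing the data were transcripts as deposited, IDH1 without 1 transcript, and the share among genes at 100 CPM or more. The sum over the leukocyte markers is not reported here.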

Additional observations from a re-analysis of the deposited data

Results flagged for a closer look

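The difference between shCBX8-2 and shCBX8-1 passed edgeR's quasi-likelihood test for CBX8, 13 members and 8 other pathway genes, which is the test of a difference between the responses of the knockdown groups to the same control. Values are log2 differences, shCBX8-2 minus shCBX8-1, with SE over 2 libraries per group. CBX8 itself differed by 1.02 ± 0.15 (adjusted p = 0.0114). Members higher in shCBX8-2 were at 0.63 ± 0.07 for ABCC1 (adjusted p = 0.00429), 0.65 ± 0.10 for ABCC3 (adjusted p = 0.0119), 0.66 ± 0.10 for SRXN1 (adjusted p = 0.0102) and 0.58 ± 0.09 for OSGIN1 (adjusted p = 0.0109). The aldehyde and aldo-keto enzymes among them were at 0.59 ± 0.06 for ALDH3A1 (adjusted p = 0.00349), 0.53 ± 0.07 for AKR1C2 (adjusted p = 0.0085) and 0.37 ± 0.08 for AKR1C3 (adjusted p = 0.0396). Members lower in shCBX8-2 were at -1.31 ± 0.10 for HMOX1 (adjusted p = 0.0013), -1.03 ± 0.08 for ALDH1A1 (adjusted p = 0.0013) and -0.61 ± 0.09 for ME1 (adjusted p = 0.0126), and at -0.44 ± 0.06 for NQO1 (adjusted p = 0.0079), -0.33 ± 0.08 for PIR (adjusted p = 0.0477) and -0.30 ± 0.07 for FTL (adjusted p = 0.0459). Other pathway genes higher there were at 1.48 ± 0.31 for TXNIP (adjusted p = 0.0309) and 0.40 ± 0.09 for MGST1 (adjusted p = 0.0349), where TXNIP, the thioredoxin-binding protein, was under 4 CPM in all libraries. Lower were the values of -0.68 ± 0.08 for GLRX (adjusted p = 0.00666), -0.57 ± 0.10 for FBXW11 (adjusted p = 0.02) and -0.51 ± 0.11 for SLC48A1 (adjusted p = 0.0356), and -0.48 ± 0.07 for SQSTM1 (adjusted p = 0.0102), -0.38 ± 0.09 for FECH (adjusted p = 0.0398) and -0.35 ± 0.09 for TRIM16 (adjusted p = 0.0491). HMOX1, ALDH1A1 and ALDH3A1 passed without any 1 library. With 2 libraries per group, no library could be checked as an outlier within its group.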

How the results depend on the processing

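Of the 39 called values of members, DESeq2's Wald test kept 39, the other scaling 36, no filter 37, dropping repeated accessions 38, the replicate block 27, and a fit of only the libraries compared 24 of 32. Leaving out control 1, control 2, shCBX8-1 replicate 1 or replicate 2 kept 11, 10, 15 and 14, and leaving out either shCBX8-2 library kept 39. Leave-one-out counts of members ran from 0 to 25 for the mean of both knockdown groups (7 with all libraries), 0 to 14 for shCBX8-1 (6), 1 to 24 for shCBX8-2 (13) and 3 to 27 between these groups (13). Other settings moved a count too. For the mean they were DESeq2's Wald test (14, beside 14.3% of all genes) and the 4 knockdown libraries as 1 group (1, beside 0.158%). For shCBX8-1 they were only the libraries compared (14, beside 14.4%) and the replicate block (2, beside 1.04%). With the replicate block the other counts were 5, 10 and 10, beside 4.12%, 9.89% and 6.35% of all genes. The replicate numbers do not pair the libraries: deviations of same-numbered libraries correlated at -0.0057, -0.0158 and 0.0209 over 17106 genes. At a minimum of 1.5-fold 2, 2, 6 and 7 members passed, beside 3.68%, 1.84%, 7.86% and 6.44% of all genes. With transcripts tested as deposited 0, 0, 0 and 0 passed with edgeR, and 0, 0, 0 and 1 of all 40859 transcripts passed. At an unadjusted p under 0.05, 19, 10, 24 and 20 members had a transcript, with no share of all transcripts computed there. UGDH, not called between the knockdown groups (0.02), reversed to -0.23 without shCBX8-2 replicate 2 and stood at 0.24 without replicate 1. Unless the setting itself tests fewer libraries, the cause was not tested. Depth limited CES1 among the members.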

Other observations

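Levels of some other pathway genes fell outside the comparisons above. SLC7A11, the cystine importer that feeds glutathione synthesis, was at 142 and 137 CPM in control, 141 and 143 CPM in shCBX8-1 and 63.3 and 118 CPM in shCBX8-2. BACH1, a repressor that competes with NRF2, was at 15.3 and 16.0 CPM in control, 18.3 and 20.4 CPM in shCBX8-1 and 9.80 and 17.3 CPM in shCBX8-2. Neither passed in any contrast, and in both genes shCBX8-2 replicate 1 was the lowest library, as it was for GCLM and UGDH. These 4 genes were picked after their values were seen.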
